A study of Mus musculus with 2 samples.

Results

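The genes described are 8 lysosomal cathepsins (*Ctsa*, *Ctsb*, *Ctsc*, *Ctsd*, *Ctsh*, *Ctsl*, *Ctss* and *Ctsz*), the lysosomal protease legumain (*Lgmn*) and the secreted cathepsin inhibitor cystatin C (*Cst3*). They were taken by name, as 10 of the 54838 genes counted, and were followed in macrophages of the mouse sciatic nerve. The cells came from Flt3-Cre LSL-YFP fl/fl reporter mice, in which *Flt3*-driven Cre switches on YFP for good in blood progenitors and in the cells that descend from them. The sciatic nerves of 19 male mice aged 10 to 12 weeks were pooled, macrophages were sorted by CD64 and CD45, and the YFP− and the YFP+ cells were each sequenced as 1 library of 3′-tagged single-cell RNA. Both groups therefore share the reporter, the sex, the age, the tissue and the sort, and differ in the YFP gate. As the study's methods state, they also differ in the lane of the chip, the number of cells loaded and the number of reads. With 1 library per group, the gate cannot be told apart from these. The labels name no injury or treatment. A cell that has not recombined stays YFP− whatever its origin, so the gate is a stand-in for origin.

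With 1 library per group no test of the difference between YFP− and YFP+ cells could be made, and no p-value is given. Intervals are exact 95% intervals that cover counting error only. Barcodes with at least 500 unique molecular identifiers (UMIs, 1 per captured RNA molecule) and 200 genes were taken as cells, which gave 1045 YFP− cells with 2418044 UMIs and 4053 YFP+ cells with 6747554 UMIs. The median cell held 2233 UMIs in the YFP− and 1484 UMIs in the YFP+ library, and 7 cell barcodes occurred in both libraries. All 10 macrophage markers checked were detected, with a summed level of 20131 counts per 1000000 UMIs (CPM) in YFP− cells and 20104 CPM in YFP+ cells. Mural cell markers summed to 8.68 CPM in YFP− cells against 117 CPM in YFP+ cells, and fibroblast markers to 23.6 and 94.6 CPM. Of 6 monocyte markers, *Ccr2* stood at 124 CPM in YFP− against 292 CPM in YFP+ cells (log2 ratio 1.23), and *Plac8* and *Chil3* had no UMI in either library. Of 12 genes known to respond to tissue dissociation, 4 were at least 25% higher in YFP+ cells (*Hspa1b*, log2 ratio 0.998, *Hspa1a*, 0.56, *Nfkbia*, 0.47, and *Atf3*, 0.37) and 0 at least 20% lower, and their summed level was 7360 and 8386 CPM. The part of these differences in the ratios of the 10 genes was not tested. The ratios below were also taken without the cluster of cells led by markers of other cell types, which gave log2 ratios of 0.22 for *Ctss*, −0.21 for *Ctsb* and −0.24 for *Ctsd*.

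Cathepsins are proteases that work mainly in the acidic lumen of endosomes and lysosomes, where macrophages break down engulfed material, lipoproteins and their own worn components. Most of them are cysteine proteases, *Ctsd* encodes an aspartic and *Ctsa* a serine protease, and legumain cuts after asparagine and also trims other cathepsins into mature forms. Cathepsin S and legumain take part in antigen presentation by processing the invariant chain (CD74) and antigens, and cystatin C, which binds cysteine cathepsins tightly, is secreted in large amounts by macrophages and microglia.

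Many lysosomal genes carry in their promoters the hexamer CACGTG, the core of the element that the transcription factors TFEB and TFE3 bind. RefSeq promoter windows of GRCm38.p6, running from 250 bases before to 50 bases after a transcript start, were present in the table used for 8 of the 10 genes. The table had no entry for *Ctsb* and *Ctsh*. CACGTG, which reads the same on both strands, occurred in a window of 4 of these 8 genes, *Ctsa*, *Ctsd*, *Ctsl* and *Lgmn*, and in 8.09% of all 27025 genes with a window. A match of letters does not show that a factor binds there. The 4 windows with a match and that of *Ctss*, which had none, are shown to give the place of the hexamer, with *Ctss* for comparison as the cathepsin with the highest ratio between the libraries and *Ctsd* as the one with the lowest. A link between the hexamer and the ratios was not tested. Lower case is the gene's own strand from 5′ to 3′, and capitals mark CACGTG.
Ctsd, chr7:142387778-142388077, minus strand: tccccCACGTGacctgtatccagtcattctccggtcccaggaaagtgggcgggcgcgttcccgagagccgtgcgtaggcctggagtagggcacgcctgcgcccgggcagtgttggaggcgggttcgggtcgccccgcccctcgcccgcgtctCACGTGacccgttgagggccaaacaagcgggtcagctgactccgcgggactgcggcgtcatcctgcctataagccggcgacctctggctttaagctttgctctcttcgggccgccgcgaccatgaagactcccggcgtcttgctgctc
Ctsa, second window, chr2:164833523-164833822, plus strand: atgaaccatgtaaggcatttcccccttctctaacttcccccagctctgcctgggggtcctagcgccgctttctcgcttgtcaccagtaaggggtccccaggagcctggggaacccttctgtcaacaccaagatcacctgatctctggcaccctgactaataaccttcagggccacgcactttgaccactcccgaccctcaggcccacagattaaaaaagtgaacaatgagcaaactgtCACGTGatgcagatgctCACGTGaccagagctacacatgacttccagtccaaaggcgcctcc
Lgmn, first window, chr12:102439043-102439342, minus strand: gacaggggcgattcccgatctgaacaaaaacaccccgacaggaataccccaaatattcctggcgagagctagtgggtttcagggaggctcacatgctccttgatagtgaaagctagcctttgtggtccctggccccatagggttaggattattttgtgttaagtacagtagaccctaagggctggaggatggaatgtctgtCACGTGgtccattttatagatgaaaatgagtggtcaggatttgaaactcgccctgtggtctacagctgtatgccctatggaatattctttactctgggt
Ctsl, chr13:64370471-64370770, minus strand: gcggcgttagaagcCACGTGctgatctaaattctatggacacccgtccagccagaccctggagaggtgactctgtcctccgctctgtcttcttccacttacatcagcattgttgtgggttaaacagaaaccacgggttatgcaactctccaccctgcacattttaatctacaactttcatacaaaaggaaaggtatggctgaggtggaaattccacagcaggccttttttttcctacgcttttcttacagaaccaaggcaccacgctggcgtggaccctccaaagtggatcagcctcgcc
Ctss, chr3:95526536-95526835, plus strand: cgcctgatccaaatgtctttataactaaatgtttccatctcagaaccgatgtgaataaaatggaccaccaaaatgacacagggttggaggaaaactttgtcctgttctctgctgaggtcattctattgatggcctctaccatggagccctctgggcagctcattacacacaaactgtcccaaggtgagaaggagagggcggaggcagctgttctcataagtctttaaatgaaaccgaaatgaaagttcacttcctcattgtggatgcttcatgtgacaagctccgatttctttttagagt

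In *Ctsd* the matches began 245 and 98 bases upstream of the start, in *Ctsa* 12 bases upstream and 6 bases downstream of it, in *Lgmn* 49 and in *Ctsl* 236 bases upstream. The longer string TCACGTGA, which 1.12% of all genes hold, was present in *Ctsa* and *Ctsd* and in none of the other 6 genes with a window. The first window of *Ctsa*, the second of *Lgmn* and those of *Ctsc*, *Ctss*, *Ctsz* and *Cst3* held no CACGTG.

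Together the 10 genes gave 1.42% of all UMIs in YFP− cells (34364 UMIs, 14212 CPM, 95% interval 14062 to 14363) and 1.37% in YFP+ cells (92769 UMIs, 13749 CPM, 13660 to 13837). The log2 ratio of YFP+ over YFP− was −0.05 (95% interval −0.07 to −0.03). Of the 10 genes, 0 were at least 25% higher and 0 at least 20% lower in YFP+ cells, which is a log2 ratio of 0.32 in either direction. Among the 2632 genes with a mean of at least 50 CPM, 6.19% were higher and 9.54% were lower by this much. The 10 log2 ratios had a median of −0.07 and ran from −0.30 to 0.21, beside a median of 0.02 over the 2632 genes. Members ran in nearly the same order in both libraries, and *Ctsc* and *Ctss* alone traded places. UMIs count whole molecules, so these levels can be compared between genes without a correction for length, although capture can still differ between transcripts.

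**Figure D1:**
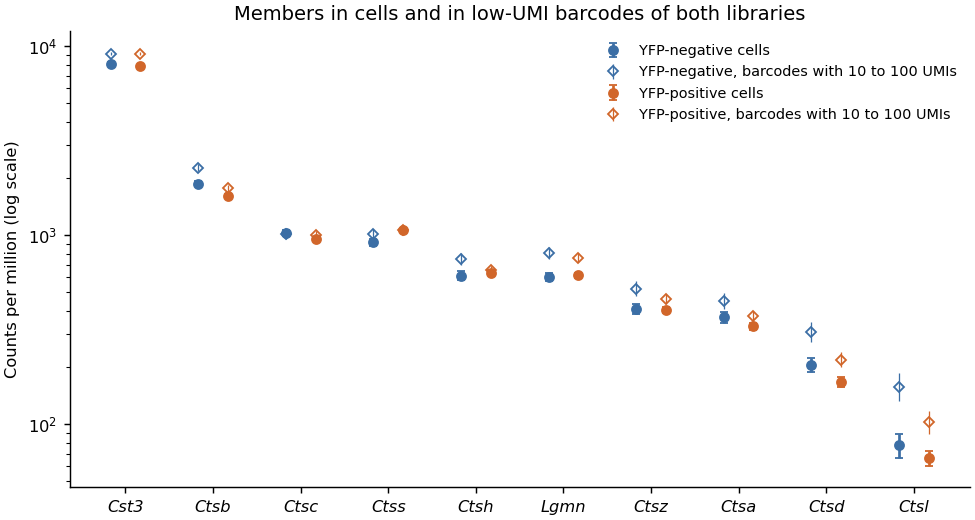
Level of each gene in CPM on a log axis, with exact 95% Poisson intervals. Filled circles are the cells of the YFP-negative (blue) and YFP-positive (orange) libraries and open diamonds are the barcodes with 10 to 100 UMIs of the same library. *Cst3* lay above all proteases (8108 and 7888 CPM in cells) and *Ctsl* below them (77.3 and 65.9 CPM), and the low-UMI barcodes lay close to or above the cells for every gene.

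Cystatin C RNA was the most abundant by far. *Cst3* (chr2:148871722-148875692 of GRCm38, minus strand) stood at 8108 CPM in YFP− (7995 to 8223) and 7888 CPM in YFP+ cells (7821 to 7955), which was rank 8 and rank 10 among all genes, and gave 57.1% and 57.4% of the UMIs of the 10 genes. Its log2 ratio was −0.04 (−0.06 to −0.02). In cells thinned to 500 UMIs each, 94.6% of YFP− (93.1 to 95.9%) and 95.4% of YFP+ cells (94.7 to 96.0%) held a *Cst3* UMI. Free RNA alone, as estimated below, would give a *Cst3* UMI in 98.99% of barcodes of either library at this depth, so the shares are not read as expression in single cells. The levels of the libraries differed by under 3%, as the fold of 0.973 shows.

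Among the cysteine endopeptidases, *Ctsb* and *Ctss* differed in opposite directions. *Ctsb* (cathepsin B, chr14:63122462-63145923, plus strand) stood at 1880.0 CPM in YFP− (1826 to 1935) and 1621 CPM in YFP+ cells (1591 to 1652), a log2 ratio of −0.21 (−0.26 to −0.16). *Ctss* (cathepsin S, chr3:95526786-95556403, plus strand) stood at 919 CPM in YFP− (881 to 958) and 1063 CPM in YFP+ cells (1039 to 1088), a log2 ratio of 0.21 (0.14 to 0.28). The intervals of the libraries did not overlap for either gene. Of the UMIs of the 9 proteases, *Ctss* took 15.0% in YFP− and 18.1% in YFP+ cells. *Ctsl* (cathepsin L, chr13:64359337-64370890, minus strand) was the lowest member, with 77.3 CPM in YFP− (66.6 to 89.2) and 65.9 CPM in YFP+ cells (60.0 to 72.4), and its log2 ratio of −0.23 had an interval that included 0 (−0.47 to 0.02).

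*Ctsd* (cathepsin D, the aspartic endopeptidase, chr7:142375911-142388038, minus strand) had the lowest ratio. It stood at 206 CPM in YFP− (189 to 225) and 167 CPM in YFP+ cells (158 to 178), a log2 ratio of −0.30 (−0.45 to −0.15), which was just short of the limit of −0.32. Its value rested partly on few cells, as described further on. *Ctsd* shares 808 exon bases with the overlapping gene *Gm49369* on the same strand, which had 0 UMIs in both libraries, and *Ctsl* shares 395 exon bases with the pseudogene *Gm49230*, which also had 0. None of these shared bases lie in the last 500 exon bases of *Ctsd* or *Ctsl*, with the exons of all annotated transcripts joined. A 3′ assay reads the end of the transcripts in the cells, and where these end was not checked. Whether the overlap lowered the counts of *Ctsd* or *Ctsl* was not tested.

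The exopeptidases, which trim peptides from an end, were closer between the libraries. *Ctsc* (dipeptidyl peptidase I, chr7:88278085-88310888, plus strand) had 1028 CPM in YFP− (988 to 1069) and 957 CPM in YFP+ cells (933 to 980.3), a log2 ratio of −0.10 (−0.17 to −0.04). *Ctsh* (an aminopeptidase, chr9:90054152-90076089, plus strand) had 612 and 635 CPM and a log2 ratio of 0.05 (−0.03 to 0.14). *Ctsz* (a carboxypeptidase, chr2:174427493-174439039, minus strand) had 409 and 404 CPM and a log2 ratio of −0.02 (−0.12 to 0.09). *Ctsa* (the serine carboxypeptidase that also protects lysosomal sialidase and galactosidase, chr2:164832873-164841032, plus strand) had 369 and 330.3 CPM and a log2 ratio of −0.16 (−0.27 to −0.05). Legumain, *Lgmn* (chr12:102394084-102439813, minus strand), had 603 and 616 CPM and a log2 ratio of 0.03 (−0.05 to 0.12). The intervals of *Ctsh*, *Ctsz* and *Lgmn* included 0, and those of *Ctsh* and *Lgmn* overlapped each other in both libraries, so that the order of these neighbours was not resolved.

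**Figure D2:**
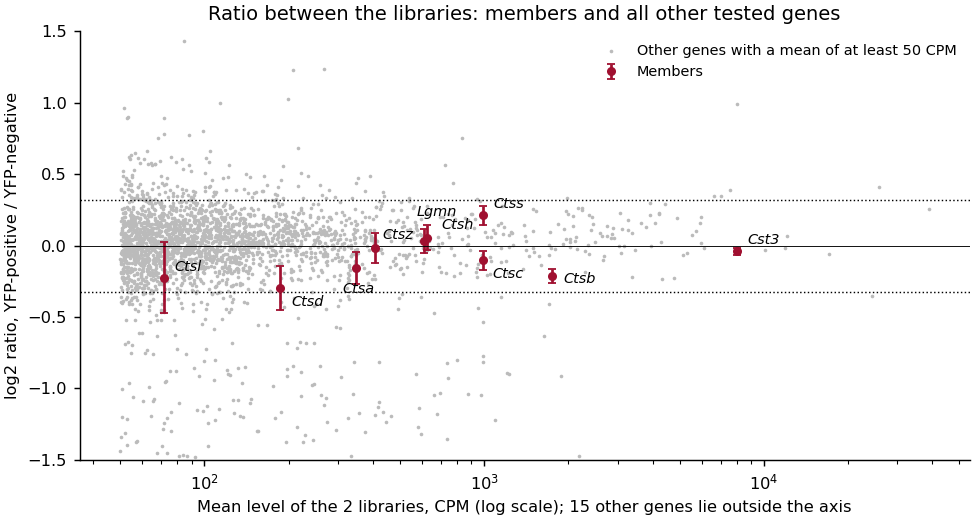
log2 ratio of YFP-positive over YFP-negative cells against the mean level in CPM (log axis) for the 10 genes (red, with 95% intervals for counting error) and all other genes with a mean of at least 50 CPM (grey), of which 15 lie outside the axis. Dotted lines mark log2 ratios of −0.32 and 0.32. The 10 genes lay between the lines, *Ctss* nearest the upper (0.21) and *Ctsd* nearest the lower (−0.30).

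The ratios of *Ctss* and *Ctsb* varied in size among cells of different depth, and that of *Ctss* also changed sign. Changes of sign, some with overlapping intervals, were also seen for *Ctsc*, *Ctsh*, *Ctsl*, *Ctsz*, *Lgmn* and *Cst3*, but not for *Ctsa* and *Ctsd*. *Lgmn* was 906 CPM in YFP− (739 to 1098) and 509 CPM in YFP+ cells (463 to 558) under 1000 UMIs. From 2000 to under 4000 UMIs *Lgmn* was 533 (497 to 571) against 649.7 CPM (622 to 678). Among cells with at least 500 and under 1000 UMIs, *Ctss* was 1205 CPM in the 150 YFP− (1011 to 1424) and 901 CPM in the 1184 YFP+ cells (840 to 966), the opposite order to that in all cells. Among cells with at least 2000 and under 4000 UMIs it was 881 CPM in the 535 YFP− (835 to 930) and 1086 CPM in the 1222 YFP+ cells (1050 to 1122). In the remaining ranges it was also higher in YFP+ cells, with 944 against 1090 CPM from 1000 to under 2000 UMIs and, with overlapping intervals, 957 (857 to 1067) against 1091 CPM (989 to 1200) in the 72 and 79 cells with at least 4000 UMIs. *Ctsb* was lower in YFP+ cells in all 4 ranges. It was 2436 CPM in YFP− (2157 to 2740) and 1482 CPM in YFP+ cells (1402 to 1564) under 1000 UMIs and 2033 (1900 to 2173) against 1631 CPM (1579 to 1684) from 1000 to under 2000 UMIs. From 2000 to under 4000 UMIs it was 1747 CPM (1682 to 1815) against 1695 CPM (1650 to 1741), the 1 range where the intervals overlapped, and with at least 4000 UMIs 2098 (1948 to 2257) against 1273 CPM (1162 to 1390). All 10 genes together were 16462 and 12669 CPM in the shallowest range, then 15310 and 14261 CPM, 13966 and 13850 CPM, and 13193 (12811 to 13582) and 12333 CPM (11985 to 12689) in the deepest, so that the third range was again the 1 with overlapping intervals. Shares of cells followed depth in the same way. Unthinned, a *Ctss* UMI was seen in 74.6% of YFP− cells against 68.7% of YFP+ cells, and after thinning to 500 UMIs in 34.2% (31.3 to 37.1%) and 36.8% (35.3 to 38.3%), so that no order is read from these shares. A *Ctsb* UMI was seen in 90.8% of YFP− cells against 80.9% of YFP+ cells unthinned and in 57.5% (54.4 to 60.5%) and 50.7% (49.2 to 52.3%) thinned. Free RNA alone, as estimated below, would give a *Ctsb* UMI in 68.1% of YFP− and 58.9% of YFP+ barcodes at 500 UMIs. This estimate takes all 500 UMIs as free RNA, so it cannot tell how much of a cell's count is its own. The *Ctsb* shares are therefore not read as expression in single cells either.

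Barcodes below the limit for cells carried the same genes. In barcodes with 10 to 100 UMIs, which were used to estimate free RNA, *Ctss* was 1016 CPM for the YFP− library and 1063 CPM for the YFP+ library, and *Ctsb* was 2282 and 1778 CPM, again lower in the YFP+ library. *Ctsl* was 158 CPM in these barcodes of the YFP− library (134 to 186) against 77.3 CPM in its cells, and 103 CPM (89.3 to 118) against 65.9 CPM in the YFP+ library. *Ctsd* was 309 against 206 CPM and 219.7 against 167 CPM. Both were higher in these barcodes than in cells in both libraries, with intervals that did not overlap. Barcodes with the makeup of these alone would, at 500 UMIs per barcode, show *Ctss* in 39.8% of cases in the YFP− and 41.2% in the YFP+ library, above the thinned shares of the cells. In a cluster of 103 cells with the mural cell genes *Acta2* and *Tagln* among its leading genes (median 993 UMIs), *Ctss*, which is chiefly a gene of hematopoietic cells, was seen in 18.4% of the thinned cells (11.5 to 27.3%) and in 34.0% unthinned. In the same thinned cells *Ctsb* was seen in 31.1% (22.3 to 40.9%) and *Cst3* in 72.8% (63.2 to 81.1%), below their shares in both libraries. The shares of *Ctsd* (7.77%) and *Ctsl* (5.83%) there were not below those of both libraries. How much of the counts of these genes in cells is free RNA was not tested.

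The other cathepsins listed were undetected or below a mean of 50 CPM. Of the 17 further cathepsins and related proteases listed, 16 are in the count tables and 11 of these had no UMI in any cell, among them *Ctsg* and *Ctsw*, proteases of granulocytes and of cytotoxic lymphocytes. A count of 0 allows a level of up to 1.24 CPM for the YFP− library and 0.445 CPM for the YFP+ library (3 counts). *Ctsf* (35.2 and 39.9 CPM) and *Ctso* (36.4 and 42.2 CPM) were the highest of them, and none of the 16 reached a mean of 50 CPM. Of 22 other cystatins, stefins and inhibitors, 17 had no UMI, *Cstb*, the intracellular stefin B, had 254 CPM in YFP− cells against 259 CPM in YFP+ cells, and *Serpinb6a* had 105 and 101 CPM. Neither of these was past the limit (log2 ratios of 0.03 and −0.05).

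Of 22 partners, substrates and sorting factors, 13 had a mean of at least 50 CPM, 4 of these were at least 25% higher and 0 at least 20% lower in YFP+ cells, and their median log2 ratio was 0.20. These shares stand beside the 6.19% and 9.54% of all genes given above. The 4 were *Cd74*, the invariant chain that cathepsin S cuts (22091 CPM in YFP− cells against 29333 CPM in YFP+ cells, log2 ratio 0.41), and the MHC class II chains *H2-Ab1* (0.39), *H2-Eb1* (0.35) and *H2-Aa* (0.34). The class II loading factors *H2-DMb1* (0.30) and *H2-DMa* (0.20) and the thiol reductase *Ifi30* (0.20) had ratios near that of *Ctss*. Lysosomal genes outside antigen presentation lay near or below 0, namely *Psap* (prosaposin, a cathepsin D substrate, 0.10), *Lamp2* (0.10), the sorting receptor *M6pr* (−0.01), *Grn* (progranulin, −0.16) and *Lamp1* (−0.18). The genes of the factors TFE3 and TFEB named above stood at 77.3 and 72.3 CPM (*Tfe3*) and at 17 and 15.3 CPM (*Tfeb*). Ratios of single genes were not tested against each other.

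All cells of both libraries were then clustered without the 10 genes and the listed partners, which gave 11 clusters. They are called by number and leading genes, and their levels are a description, with no test. The combined level of the 10 genes was highest in cluster 0 (*Tslp*, *mt-Nd4l*; 978 cells) at 15518 CPM and lowest in cluster 9, the cluster with *Acta2* and *Tagln* among its leading genes, at 8364 CPM, a range of 1.86-fold. Every member but *Ctsd* and *Ctsl* was lowest in cluster 9, with *Ctsc* at 403 CPM (309 to 515) against 1261 CPM (1203 to 1322) in cluster 3, where it was highest.

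*Ctss* and *Ctsb* peaked in different clusters. *Ctss* was highest in cluster 4 (*Lgals3*, *S100a4*, *S100a6*, *Ccr2*; 59 YFP− and 535 YFP+ cells) at 1400 CPM (1335 to 1467) and next in cluster 3 (*Cxcl2*, *Hspa1a*, *Ccl4*, *Atf3*; 79 and 545 cells) at 1319 CPM (1259 to 1381), whereas it was 784 CPM (711 to 863) in cluster 6 (*Cd209f*, *Cd209g*, *Fcna*, *Ccl8*; 95 and 181 cells). *Ctsb* was highest in cluster 6 at 2246 CPM (2120.2 to 2376) and stood at 1496 CPM (1429 to 1566) in cluster 4. In cluster 3, genes known to respond to tissue dissociation took 2.56% of UMIs, against 0.386% in cluster 4 and 0.313% in cluster 6, and the part of dissociation in the *Ctss* and *Ctsc* levels of cluster 3 was not tested. Dividing cells, cluster 10 (*Top2a*, *Mki67*; 77 cells), had the lowest *Ctsd* (95.3 CPM, 60.4 to 143) and *Ctsl* (20.7 CPM, 6.73 to 48.4) and the highest *Lgmn* (738 CPM, 633 to 855), though the *Lgmn* intervals of clusters 3 (718 CPM) and 4 (710 CPM) overlapped it. The *Ctsd* interval of cluster 10 also overlapped those of clusters 1, 2, 3, 7 and 8. Its *Ctsl* level rested on 5 UMIs, with an interval that overlapped those of clusters 1, 4, 5, 7 and 8.

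**Figure D3:**
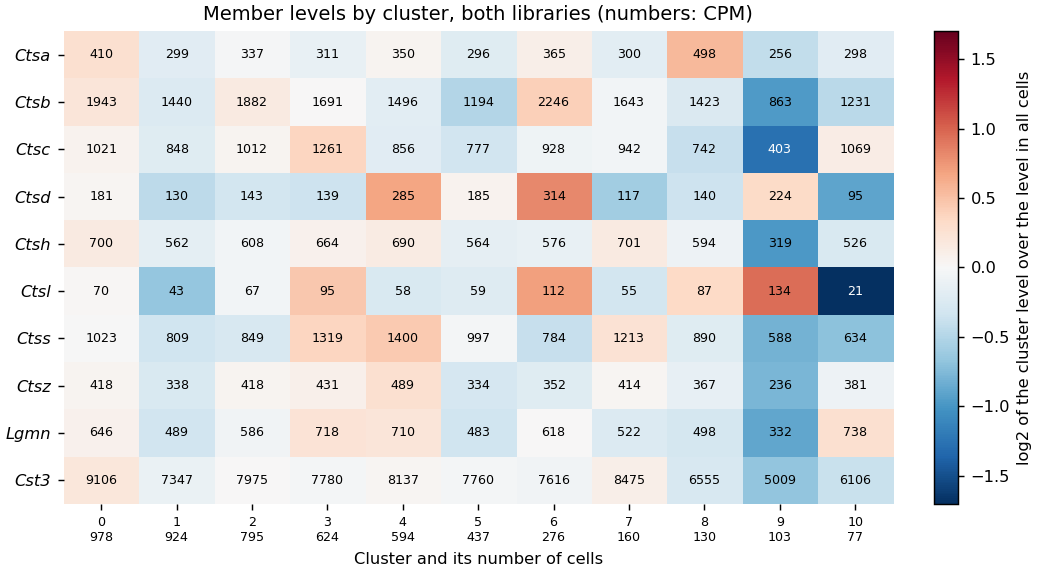
Level of each gene (rows) in the 11 clusters (columns, with the number of cells), both libraries together. Numbers are CPM and colours are the log2 of the cluster's level over that in all cells (red higher, blue lower). *Ctss* was highest in clusters 4 and 3, *Ctsb* in cluster 6, *Ctsd* in clusters 6 and 4, and most genes were lowest in cluster 9.

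The library ratios were also taken within the 8 clusters that held at least 20 cells of each library. For *Ctsb*, 1 of 8 ratios was above 0 and they ran from −0.45 (cluster 4) to 0.06 (cluster 6). The interval lay below 0 in 2 of the 8, clusters 3 and 4, and included 0 in the others. For *Ctss*, 5 of 8 were above 0, from −0.17 in cluster 4 to 0.37 in cluster 2, where it was 718 CPM in YFP− cells against 932 CPM in YFP+ cells and where alone the interval lay above 0 (0.22 to 0.53). The cluster 4 ratios rested partly on single YFP− cells. Its 59 YFP− cells held 302 *Ctsb* and 239 *Ctss* UMIs, of which 1 cell held 57 and 37 and another 31 and 7. Ratios of cluster 4 without these cells were not taken for *Ctsb* and *Ctss*. With the clusters weighted alike in both libraries, an alternative chosen after seeing the data, the log2 ratio of *Ctss* was 0.10 and that of *Ctsb* −0.13, both smaller than the ratios over all cells. The combined level of the 10 genes ran from −0.13 to 0.11 over the 8 clusters.

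*Ctsd* was the member whose RNA was spread least evenly over the cells. Beyond the variance that counting alone gives at the depth of each cell, its squared coefficient of variation was 10.3 in YFP− cells, rank 22 of 2672 genes with at least 50 CPM, and 6.02 in YFP+ cells, rank 26 of 2602. The medians of these genes were 0.453 and 0.158. *Ctsl* came next with 1.51 and 0.86. The *Ctsd* value of YFP− cells rested on few cells. Among cells with 1000 to 4000 UMIs it was 2.60, against 1.82 for *Ctsl*, and without the 1 cell with the most *Ctsd* it was 5.16. In YFP+ cells the same values were 5.76, against 1.02 for *Ctsl*, and 4.71. *Cst3* was the most even in YFP− cells with 0.142, and *Ctsh* in YFP+ cells with 0.0728. The 1% of cells with the most *Ctsd* held 25.5% of its UMIs in YFP− and 22.2% in YFP+ cells, against 6.34% and 6.05% for *Ctsb*, 7.34% and 6.64% for *Ctss*, and 3.18% and 3.71% for *Cst3*. This share rises as the count of a gene falls. For *Ctsl*, the lowest member, it was 16.6% and 19.8%, with at most 3 and 4 UMIs in a cell.

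**Figure D4:**
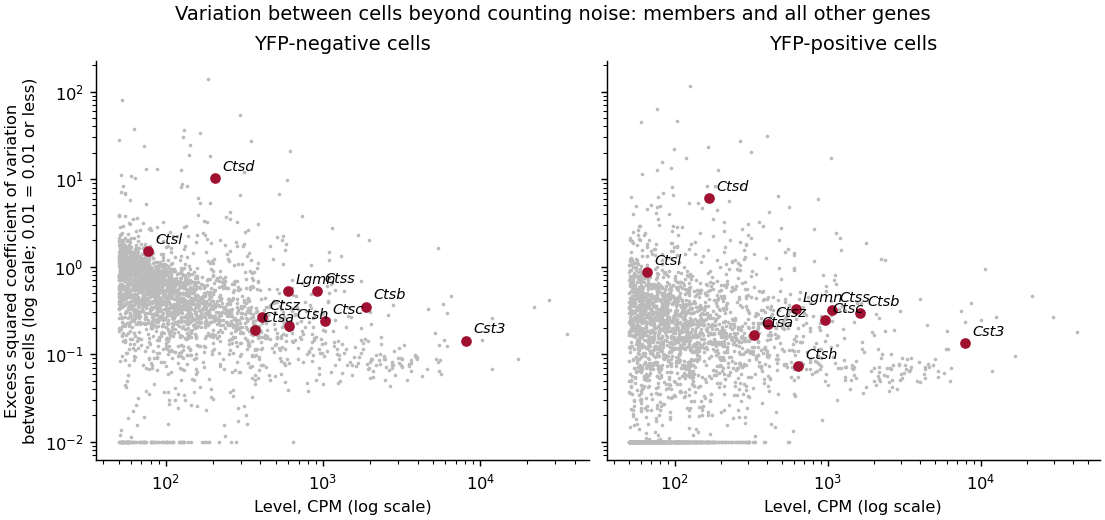
Variation between cells beyond counting noise (excess squared coefficient of variation, log axis) against level in CPM (log axis), in YFP-negative (left) and YFP-positive cells (right). Red points are the 10 genes and grey points all other genes with at least 50 CPM. *Ctsd* lay above the other members in both libraries (10.3 and 6.02).

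Unthinned, most cells held no *Ctsd* UMI (72.3% of YFP− and 80.6% of YFP+ cells). The highest counts were 44 in 1 YFP− cell and 26 in 1 YFP+ cell. After thinning, a *Ctsd* UMI was seen in 8.71% of YFP− (7.07 to 10.6%) and 7.08% of YFP+ cells (6.31 to 7.91%). Free RNA alone would give 14.3% and 10.4% at the thinned depth. The *Ctsd* shares are therefore not read as expression in single cells, and no order is read from them. At least 5 *Ctsd* UMIs, a limit set after seeing the data, were found in 5 YFP− cells (0.478%, 0.156 to 1.11%) with 44, 30, 17, 7 and 5 UMIs, and in 15 YFP+ cells (0.370%, 0.207 to 0.610%). Just under the limit, 9 YFP− and 3 YFP+ cells held 4 UMIs, and just on it 1 and 4 cells held 5. The limit takes no account of the depth of a cell. The cells at or over it had a median of 5056 UMIs in YFP− and 2402 UMIs in YFP+ cells. The medians over all cells were 2233 and 1484 UMIs. No order of the libraries is therefore read from the shares of cells at or over the limit. These 20 cells of 5098 carried 20.6% of the *Ctsd* UMIs of the YFP− and 15.0% of those of the YFP+ library. Without them *Ctsd* was 165 CPM in YFP− cells against 143 CPM in YFP+ cells, a log2 ratio of −0.21. Of the 20 cells, 11 were in cluster 4, which held 11.7% of all cells. The high *Ctsd* level of cluster 4 lay in them, since without them it fell from 590.2 to 119 CPM in YFP− (69.3 to 191) and from 242 to 131 CPM in YFP+ cells (110 to 154). In cluster 6, *Ctsd* stayed at 339 CPM (265 to 427) in YFP− and 251 CPM (199 to 312) in YFP+ cells without them.

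Taken as a pool, the YFP+ cells high in *Ctsd* were also high in several other lysosomal genes, which is a description since the cells were chosen by their counts. In the 15 YFP+ cells, *Ctsb* was 5425 CPM (4705 to 6225) against 1599.8 CPM in the other YFP+ cells (1569.7 to 1630.4). *Ctsz* was 1363 against 399 CPM, *Lgmn* 1550.1 against 611 CPM, *Ctsa* 909 against 327 CPM and *Ctss* 2138 against 1057 CPM. *Cst3* was 8365 against 7885 CPM with overlapping intervals, and *Ctsc* was lower, 481 (285 to 760.3) against 959 CPM. Stefin B (*Cstb*) was 1951 against 249.8 CPM and *Psap* 3341 against 1026 CPM. Galectin 3 (*Lgals3*) was 2058 against 70.8 CPM, the lipid droplet coat protein *Plin2* 882 against 143 CPM, the fatty acid binding protein *Fabp5* 347 against 7.75 CPM, osteopontin (*Spp1*) 428 against 15.2 CPM, and *Apoe* 53933 against 21220.1 CPM. *Mrc1* was 241 (110.0 to 457) against 898 CPM and *Cd74* 17933 against 29396 CPM. *C1qa*, a macrophage gene, was seen in 15 of the 15 cells. It stood at 6101 CPM over all YFP+ cells, so 1 UMI of it says little about a single cell. Single cells of the 15 differed widely, from 1 to 30 *Ctsb* UMIs. *Spp1*, *Fabp5*, *Lgals3*, *Plin2* and *Cd9* together gave from 0 to 45 UMIs per cell.

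The 5 YFP− cells were not alike either. The cells with 44 and 30 *Ctsd* UMIs were in cluster 4 and held 57 and 31 *Ctsb* UMIs and 164 and 111 UMIs of 6 macrophage genes (*C1qa*, *C1qb*, *C1qc*, *Csf1r*, *Cd68* and *Cx3cr1*). The cell with 17 *Ctsd* UMIs was in cluster 9, held 0 *Ctsb* and 0 *Ctss* UMIs and 1 UMI of the macrophage genes, and held 203 UMIs of *Igfbp5*, *Csn3*, *Wfdc18*, *Lcn2*, *Krt8* and *Krt18*, genes of secretory epithelium. None of the other 4 cells held a UMI of those 6 genes. The genes in this and the preceding paragraph other than the 10 members were chosen after their values were seen.

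Across the cells of each library, the 10 genes tended to be found together, with low correlations where counting noise was not taken out. Correlations were taken on residuals that correct for the UMI total of a cell, over 1045 and 4053 cells that share a library, its depth and its free RNA, and they are a description with no test. Of the 45 pairs, 44 were above 0 in each library, with a median of 0.103 in YFP− and 0.0889 in YFP+ cells. With all other genes of at least 100 CPM, the members had median correlations from −0.0124 (*Cst3*) to −0.00115 (*Ctsz*). The highest mean over the libraries was that of *Ctsb* and *Ctsd* (0.294 and 0.274), followed by *Ctss* and *Cst3* (0.255 and 0.243) and *Ctsb* and *Lgmn* (0.295 and 0.191). The lowest was that of *Ctsd* and *Cst3* (−0.104 and 0.0351). Among cells with 1000 to 4000 UMIs, the value for *Ctsb* and *Ctsd* was 0.0873 in YFP− and 0.290 in YFP+ cells. Within clusters it was 0.275 and 0.287. Counting noise at few UMIs per cell pulls all these values toward 0. With this noise taken out, *Ctsb* and *Ctsd* gave 0.577 and 0.509 over all cells, and *Ctss* and *Cst3* 0.295 and 0.487. The calculation without noise also gives deeper cells more weight, so its values differ from those above in more than the noise. *Ctsb* and *Lgmn* gave 0.618 and 0.480, and *Ctsd* and *Cst3* −0.167 and 0.0570.

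**Figure D5:**
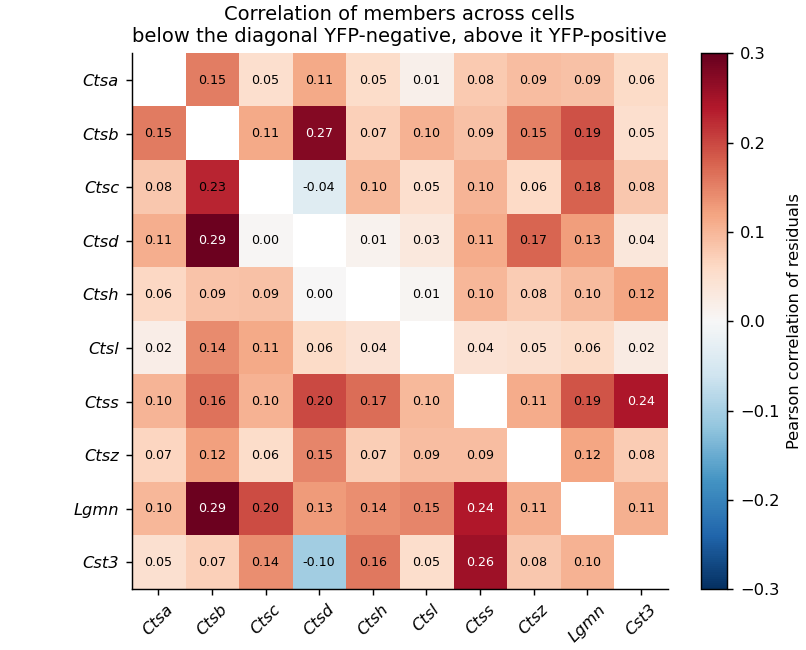
Pearson correlation across cells of the residuals of each pair of genes, YFP-negative below and YFP-positive above the diagonal. Colours and numbers give the correlation. *Ctsb* with *Ctsd* was among the highest in both libraries (0.294 and 0.274), and *Ctsd* with *Cst3* was the lowest in YFP-negative cells (−0.104).

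Among the genes with at least 100 CPM in each library, those most like each member were named by the mean correlation over the libraries. *Ctsb* was most like *Apoe* (0.370), then *Cd63* (0.285), a tetraspanin of late endosomes, and *Ctsd*. *Ctsd* was most like *Ctsb*, *Cstb* (0.267) and *Psap* (0.253). Among the 3 genes most like *Ctss* were *C1qb* (0.256) and *Cst3*. *Cst3* was most like *C1qa* (0.311), *Apoe* (0.308) and *C1qb* (0.284). *Ctsh* was most like *Cd74* (0.179), *H2-Ab1* (0.167) and *C1qb* (0.163), and *Ctsc* was most like *Itm2b* (0.221), *Serinc3* (0.213) and *Apoe* (0.192). *Lgmn* was most like *Itm2b* (0.296), *Apoe* (0.289) and *C1qa* (0.256). For *Ctsa*, *Ctsz* and *Ctsl* the highest values were 0.155 (*Ctsb*), 0.188 (*C1qb*) and 0.15 (*Itm2b*).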

How the data were processed

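The deposited tables hold unnormalized UMI counts, 1 value for each gene in each barcode. The authors obtained these counts by running cellranger on reads of 3′ single-cell libraries against GRCm38, as the study's methods and the submitters' processing notes state (Cell Ranger 3.0.2 and Seurat 2.2.0 in the notes). The methods name another cellranger version, the release of the gene annotation is not given in the sources used here, and no barcode had been filtered out. Every column of per-sample values was used.

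The 10 genes, the lists and the cell rule were chosen with earlier results of these data known. Cells were barcodes with at least 500 UMIs and 200 genes, with no filter on mitochondrial reads, and doublets were kept (no caller was run). Levels are counts summed over cells and scaled to 1000000 UMIs per library (CPM). Log2 ratios add 1 CPM to each level. Genes with a mean of at least 50 CPM over both libraries were compared, and a log2 ratio of 0.32 in either direction was used as a limit of size. Shares of cells are given unthinned and with every cell thinned to 500 UMIs, which left out no cell. Free RNA was estimated from barcodes with 10 to 100 UMIs. Intervals are exact Poisson (levels), Clopper-Pearson (shares) and conditional binomial (ratios).

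Clusters came from scanpy 1.11.5 and leidenalg 0.10.2 (10000 counts per cell, log, 2000 variable genes, 20 principal components, 20 neighbours, resolution 0.8), with 70 genes left out. A cluster was set apart as led by another cell type when at least 2 of its 10 leading genes were markers of 1 such type. Leading genes had at least 100 CPM and were ranked by fold with 10 CPM added. Named were the 10 members, listed genes at a mean of at least 50 CPM, the highest or lowest of a list, and the 3 genes most like each member. The analysis ran in Python 3.11.15 with scipy 1.17.1, numpy 2.4.6 and pandas 2.3.3, and gene positions came from the GENCODE annotation of GRCm38, which held 99.79% of the gene identifiers. The scripts were tested on simulated data. Some genes that the naming rule selected are not reported here.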

Additional observations from a re-analysis of the deposited data

Results flagged for a closer look

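Signal of the 10 genes was also present outside the barcodes taken as cells, in those with 10 to 100 UMIs, where a count of 0 would have been the floor. In the YFP− library they gave 9148 CPM for *Cst3*, 309 CPM for *Ctsd* and 158 CPM for *Ctsl*, and in the YFP+ library 9154, 219.7 and 103 CPM. *Ctsl* was higher there than in cells by a log2 difference that is −1.02 as cells over barcodes in the YFP− library (95% interval −1.34 to −0.70) and −0.63 in the YFP+ library (−0.87 to −0.39). What these barcodes hold besides free RNA was not tested.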

How the results depend on the processing

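No paired analysis was possible because each group is 1 pooled library, and for the same reason no library could be left out. Under 14 alternatives, 0 members were ever at least 25% higher. The count of members at least 20% lower was 2 with each cell weighted equally (*Ctsd* and *Ctsl*), 2 after thinning to 500 UMIs (*Ctsb* and *Ctsl*) and 1 with the same cluster mix (*Ctsd*, −0.42), beside 12.1%, 17.2% and 8.45% of all genes tested in the same settings. The combined log2 ratio of −0.05 was −0.019 for cells of at least 1000 UMIs, −0.11 with cells weighted equally, −0.11 after thinning and −0.023 with the same cluster mix. The median of the 10 ratios was −0.16 with cells weighted equally and −0.18 after thinning. *Ctss* stayed above 0 (0.09 to 0.27) and *Ctsb* (−0.34 to −0.13) and *Ctsd* (−0.42 to −0.12) below 0 under all 14, and the *Ctsd* ratio was −0.12 without the 5% of cells with the most UMIs. Not all 14 could move these ratios. Testing genes from a mean of 10 CPM cannot change the ratio of a member. With a pseudocount of 0.1 CPM, or with mitochondrial and ribosomal protein genes left out of the total, *Ctss* stayed at 0.21 and *Ctsb* at −0.21. *Ctsh*, *Ctsz* and *Lgmn* changed sign under some of the 14. The log2 range of the combined level over clusters, 0.89, was 0.99 and 1.02 at resolutions of 0.4 and 1.2, 1.2 with no gene left out, 1.06 with cells thinned first and 0.48 without the cluster led by other cell types. The excess variation of *Ctsd* in YFP− cells, 10.3, was 2.60 for cells with 1000 to 4000 UMIs and 5.16 without its highest cell, against 5.76 and 4.71 in YFP+ cells. The same cluster mix, the cells with at least 5 *Ctsd* UMIs, the highest cell and the cluster left out were alternatives chosen after seeing the data. The cause of these shifts was not tested. Depth limits *Ctsl* most, with a 95% interval of 66.6 to 89.2 CPM in YFP− cells.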
